A study of Schizosaccharomyces pombe with 7 samples.

Results

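H3K9me2 was compared directly between fft3∆ cells and UV21 cells of the fission yeast Schizosaccharomyces pombe. The comparison takes 3 of the 7 arrays of the series: the 2 fft3∆ arrays, of series 2 and of series 3, and the single UV21 array, of series 1. They were chosen by their labels alone. Each array carried immunoprecipitated DNA in Cy5 and whole-cell extract DNA in Cy3, on 60-mer probes spaced at 300 bp. The fft3∆ cells lack fft3, which encodes a chromatin remodeller of the Snf2 family. UV21 is a strain whose genotype the labels give only by that name. The 3 arrays labelled WT, 1 in each series, are given beside the comparison as controls. Their extracts did not all carry the same DNA, as given below, so WT here is a label and not 1 shared strain. Cells of every group were log-phase cultures in the rich medium YEA, kept at 30 ˚C before fixation in 3% paraformaldehyde. The seventh array, of Fft3-GFP, was not used in any comparison here. Nothing in the labels says whether the arrays came from separate cultures, so p-values measure only the spread between these arrays.

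In fission yeast, methylation of histone H3 at lysine 9 marks heterochromatin. Its large domains lie on the outer repeats of the centromeres, at the silent mating-type locus and next to the telomeres, and small islands lie over some meiotic genes. Clr4, the enzyme that deposits the mark, also binds it, so that a domain can spread along the chromosome and be copied after replication. Fft3 is known to hold nucleosomes in place in such domains, which helps the mark to be inherited.

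The value used throughout is an H3K9me2 level, averaged over windows of 2 kb: the ChIP channel over the extract channel on a log2 scale, less the array's own median. A level of 0 is therefore the typical probe of the array, and a level of 1 is a ratio 2 times as high. A difference is fft3∆ minus UV21. A lower level in every cell and a loss in part of the cells cannot be told apart in such bulk chromatin. Strain and series cannot be told apart either, because UV21 is found in series 1 alone and fft3∆ in the other two. A window is called lower here where both fft3∆ arrays lie at least 1 log2 unit under UV21, and the strains are said to agree where both lie within 0.5.

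The whole-cell extract checked the labels. The 12 probes of fft3 (array positions 2099101 to 2102460 of chromosome 1, in a genome build not given in the sources used here) gave 0.303% and 0.378% of the array's median Cy3 signal in fft3∆ series 2 and series 3. They gave 75.1% in UV21 and 54.7% to 80.9% in WT. Only 3 and 5 of these probes were well above background in fft3∆, against all 12 in UV21 and in each WT array. Most of the fft3 DNA is thus missing from both fft3∆ extracts, while it is present in the UV21 extract. A further 27 probes at 2932501 to 2940360 of chromosome 1, which cover cao1 and cbm1, had Cy3 levels of −8.09 and −8.45 in fft3∆, −7.51 in UV21 and −6.87 in WT series 1. In WT series 2 and series 3 the same probes had −0.08 and −0.28, so the arrays labelled WT do not all carry the same DNA.

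Over the whole genome the strains parted in one direction. Of 6183 windows, both fft3∆ arrays lay at least 1 log2 unit under UV21 in 274 (4.43%) and at least 1 unit above it in 0 (0.0%). They agreed within 0.5 in 3493 windows (56.5%). limma with Benjamini-Hochberg adjustment, fitted over all 6 H3K9me2 arrays, called 109 windows lower (1.76%) and 0 higher (0.0%) at an adjusted p under 0.05. At an unadjusted p under 0.05 it gave 704 lower (11.4%) and 94 higher (1.52%). The limma calls rest on few arrays. Without WT series 1 or WT series 2 limma called 0 windows, with 541 and 560 lower at an unadjusted p under 0.05. Without fft3∆ series 2 it called 339 lower and 23 higher, and without fft3∆ series 3 it called 43 lower and 11 higher. The sizes and the counts by the fold criterion are therefore given first below. The smallest 2-sided p that an exact permutation test over 2 arrays against 1 can give is 0.333, so it cannot reach 0.05 for any region. The fft3∆ arrays lay within 0.5 of each other in 69.4% of windows.

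All directions given here are relative to the typical probe of each array. With each array centred on its mean over the pericentromeres instead, the median difference over all windows moved from −0.10 to 1.63, and limma called 1 window lower and 5760 higher. The flanks, cores and pNSU contigs then differed by 0.07, 0.19 and 0.04, and the ends of chromosomes 1 and 2 by 0.86. These values are from the ratio column, and the pericentromeric level of UV21 depends on the signal column, as given below. Processed signals with this centring, chosen after seeing the data, gave a median difference of 0.03, with 121 windows lower and 9 higher by limma. The differences were then −1.37 in the flanks, 0.19 in the cores, −1.56 on the pNSU contigs and −0.75 at those ends. Centring adds the same constant to every value of an array, so differences between regions do not depend on it. Relative to the median of all windows, the difference in the ratio column was −1.56 in the flanks, −1.43 in the cores, −1.59 on the pNSU contigs and −0.77 at those ends. In the processed signals it was −1.40, 0.17, −1.59 and −0.77.

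**Figure D1:**
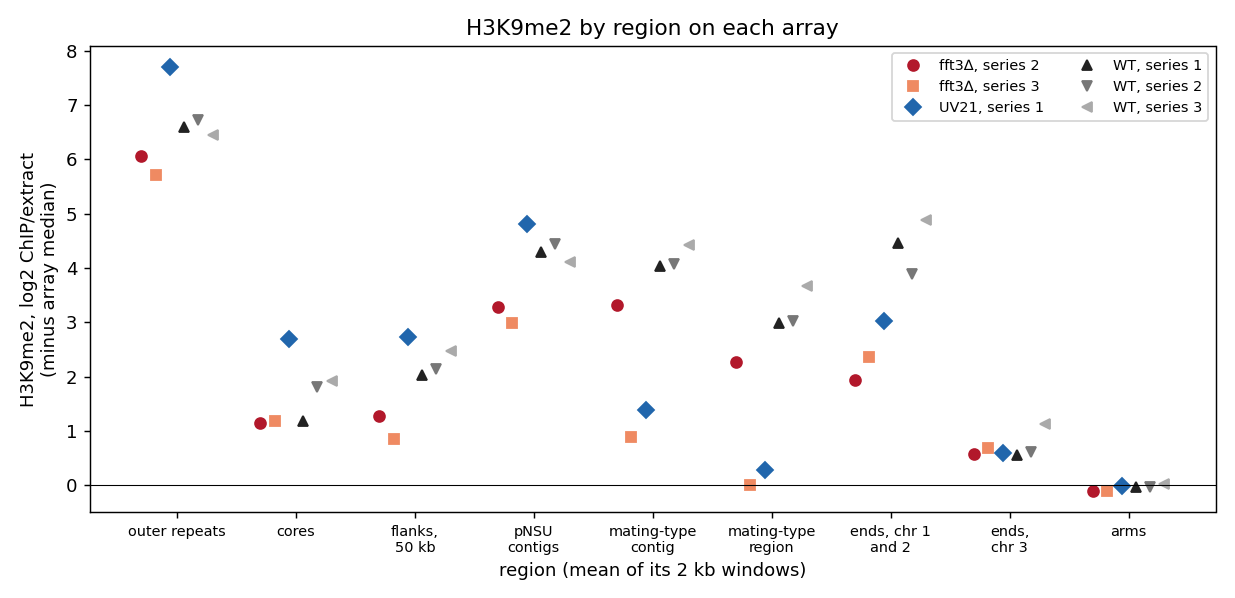
H3K9me2 level (y axis, log2 ChIP over whole-cell extract minus the array median) in 9 kinds of region (x axis), each point being the mean over the region's 2 kb windows on 1 array. In the ratio column, which is plotted, both fft3∆ arrays lie under the UV21 array in the centromeric regions and on the pNSU contigs, while at the mating-type locus UV21 and fft3∆ series 3 lie together far under fft3∆ series 2 and WT.

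At the centromeres the size of the difference depended on the signal column, as given after the levels. The outer repeats, where RNA interference directs the mark, had levels of 6.07 and 5.71 in the fft3∆ arrays, 7.70 in UV21 and 6.59, 6.73 and 6.45 in WT series 1, 2 and 3. The fft3∆ mean of 5.89 ± 0.25 (SD, n = 2) was 1.81 under UV21, a 3.51-fold lower ratio, and all 31 windows were lower by the fold criterion. In this column UV21 was the highest of the 6 arrays and the fft3∆ arrays the lowest. The difference was −1.81 at centromere 1, −1.89 at centromere 2 and −1.74 at centromere 3. limma called 11 of the 31 windows.

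This difference at the repeats depends on which column of the scanner files is read. At 424 probes around the 3 centromeres, UV21 had a processed Cy3 signal 3.00 times that implied by the software's own ratio column and by the spot signals. Processed signals and ratio column departed at 442 probes in all on this array, and at no more than 16 on any other H3K9me2 array. The levels above come from the ratio column. From the processed signals, which the deposited value table carries, the outer repeats had 6.07 and 5.71 in fft3∆, 6.09 in UV21 and 6.45 to 6.73 in WT, a difference of −0.20, with 0 of 31 windows lower and 23 agreeing. UV21 then lay under every WT array. All windows of the outer repeats and cores lie inside these 3 stretches, which also reach into 19 of the 150 windows of the flanks. The Cy5 signal alone, which holds the ChIP DNA and lacks the factor, differed by −1.29 relative to the array medians. Its level was 5.40 and 5.77 in fft3∆, 6.88 in UV21 and 6.08, 6.13 and 4.78 in WT series 1, 2 and 3. WT series 3 thus lay under both fft3∆ arrays in Cy5 but above both in the ratio, so Cy5 alone does not settle the choice of column. The Cy3 level that goes with the ratio column was higher in fft3∆ than in UV21 by 0.49.

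The cores, the central domains that carry the centromeric histone in place of most H3, also differed in the ratio column, at a lower level. They were taken as the longest stretches of low WT level inside the repeats, at 3766001 to 3778000 of chromosome 1, 1620001 to 1630000 of chromosome 2 and 1094001 to 1102000 of chromosome 3. Levels were 1.14 and 1.17 in fft3∆, 2.69 in UV21 and 1.18, 1.81 and 1.91 in WT. The fft3∆ cores were 1.53 lower than UV21 (2.90-fold), with 11 of 15 windows lower and 1 called by limma. WT series 1, the WT array of the same series as UV21, lay with the fft3∆ arrays. From the processed signals UV21 had 1.09, the lowest of the 6 arrays, and the difference had the other sign, at 0.07, with 0 windows lower and 7 agreeing.

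On the arms beside the centromeres the difference was of like size from either column. The 50 kb flanks on both sides of the 3 centromeres had 1.27 and 0.85 in fft3∆, 2.73 in UV21 and 2.04, 2.15 and 2.48 in WT. The fft3∆ mean of 1.06 ± 0.29 (SD, n = 2) was 1.66 lower than UV21 (3.17-fold). Of the 150 windows 138 were lower (92.0%, against 4.43% of all windows), 0 agreed, and limma called 72. From the processed signals the difference was −1.50, with 123 windows lower and 5 agreeing. Over the 131 flank windows clear of the stretches with the Cy3 factor the difference was −1.61, with 119 lower. The 6 flanks ranged from −1.52 on the left of centromere 2 to −1.82 on its right. Over the flanks both fft3∆ arrays lay under every WT array and UV21 above every WT array.

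In the first 10 kb from the pericentromere the fft3∆ arrays had 2.25 and 1.77 and UV21 had 3.98, a difference of −1.96, and 30 of 30 windows were lower. This bin holds the 19 windows inside the stretches, and from the processed signals its difference was −1.13, with 15 windows lower. Its 11 other windows differed by −1.90, all of them lower. From 10 to 100 kb both columns gave the same counts, and the difference was smaller in each bin than in the bin before it. It was −1.79 at 10 to 20 kb, with 30 of 30 windows lower. At 40 to 50 kb the levels were 0.78 and 0.42 in fft3∆ against 2.03 in UV21, with 23 of 30 windows lower. At 90 to 100 kb they were 0.24 and −0.00 in fft3∆ against 0.73 in UV21, with 1 of 30. UV21 was above the highest WT array in each of these last 3 bins. Beyond the flanks, 43 of the 5332 arm windows were lower (0.806%, against 4.43% of all windows). These were 29 of the 150 arm windows within 100 kb of a pericentromere (19.3%) and 14 of the 5182 farther away (0.270%).

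**Figure D2:**
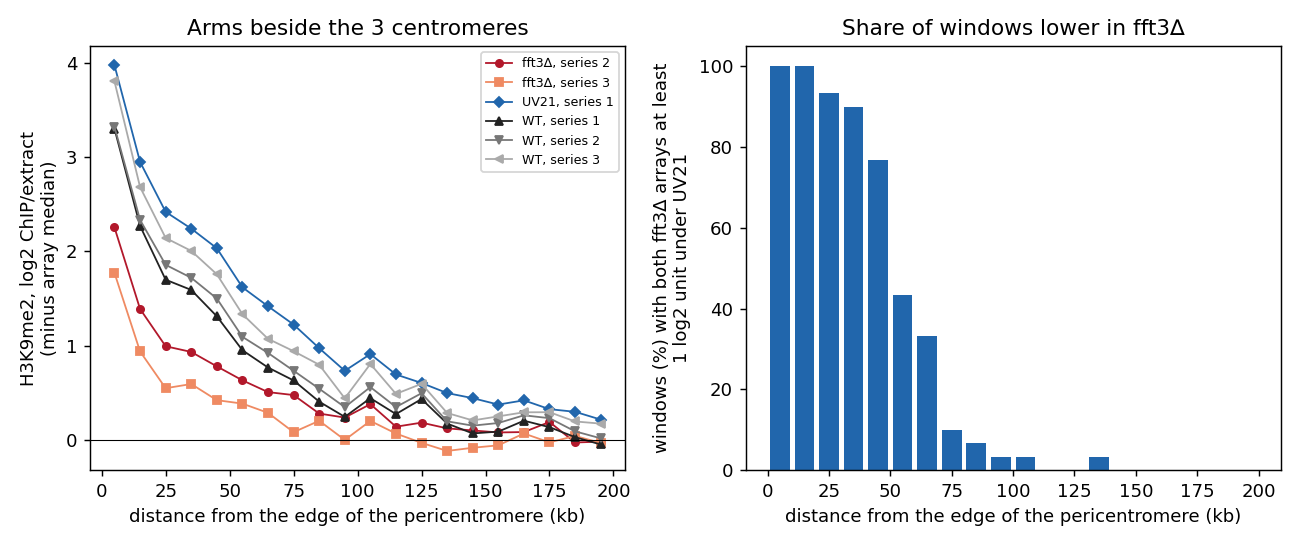
Left, H3K9me2 level against distance from the edge of the pericentromere (kb, bins of 10 kb, mean of both sides of 3 centromeres), 1 line per array. Right, the share of 2 kb windows per bin in which both fft3∆ arrays are at least 1 log2 unit under UV21; it is 100% at 10 to 20 kb and 3.33% at 90 to 100 kb. Both panels use the ratio column; from the processed signals 15 of the 30 windows of the first bin are lower in place of all 30.

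The genes of these flanks carried the same difference. Protein-coding genes of a reference assembly were placed on the array by GC content, and 4780 had at least 2 usable probes. Each arm was given 1 offset, and some 100 kb stretches matched better at another. In that from 1600 kb of chromosome 2, which holds yox1, rec6, wat1 and fba1, r was 0.331 at 7990 bp. It was 0.270 within 300 bp of the offset used. In the first of chromosome 1, which holds tlh1, r was 0.349 at −21610 bp against 0.322. The placement of these genes is therefore less certain. Of these, 186 were lower by the fold criterion (3.89%), 4 were higher (0.0837%) and 2761 agreed (57.8%). limma called 93 lower (1.95%) and 0 higher (0.0%), with 585 (12.2%) and 53 (1.11%) at an unadjusted p under 0.05. The flanks held 126 of the genes, of which 115 were lower by the fold criterion and 71 by limma. With any 1 of the 3 WT arrays left out limma called 0 genes, with 460, 468 and 566 lower at an unadjusted p under 0.05, while without fft3∆ series 2 or series 3 it called 450 and 202 lower and 32 and 10 higher.

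The 8 genes with the largest lower differences by the fold criterion lay in the flanks. yox1, a repressor of cell-cycle transcription (2 probes, 1650001 to 1650360 of chromosome 2), had 1.93 and 1.41 in fft3∆, 4.13 in UV21 and 3.45 to 4.13 in WT. Its difference of −2.46 (SE 0.35) had an adjusted p of 0.0303 by limma. Its neighbour rec6, which is needed for meiotic recombination, differed by −2.35 (SE 0.36, adjusted p = 0.0313 by limma). Both genes lie inside the stretch of chromosome 2 with the UV21 Cy3 factor, unlike the other 6. From the processed signals they differed by −0.86 and −0.76 and missed the threshold (adjusted p 0.338 and 0.436 by limma). On the right of centromere 3, mrpl12, a mitochondrial ribosomal protein gene, had 1.12 and 0.57 in fft3∆ against 3.06 in UV21. The ribosome biogenesis GTPase gene lsg1 had 1.12 and 0.10 in fft3∆ against 2.88 in UV21, and overlaps mrpl12 on the array, so that the pair share probes. mrpl12 passed the threshold (difference −2.21, adjusted p = 0.0303 by limma) and lsg1 missed it (−2.27, adjusted p = 0.0553). For got1, which acts in Golgi transport, the levels were 1.30 and 0.42 in fft3∆ against 3.07 in UV21. tca17, encoding a subunit of a membrane-trafficking complex, lies at the outer side of the left flank of centromere 1 and had −0.56 and −0.58 in fft3∆, 1.65 in UV21 and 0.83 to 1.02 in WT.

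The size was largest at fba1, the aldolase of glycolysis, with −0.82 and −1.83 in fft3∆, 1.48 in UV21 and 0.02, 0.59 and 1.23 in WT. Its difference of −2.81 (SE 0.55) missed the threshold at an adjusted p of 0.0553 by limma. wat1, which encodes a WD-repeat protein of the TOR complexes, had 0.98 and −0.34 in fft3∆ against 2.73 in UV21 and likewise missed it (adjusted p = 0.0638 by limma). At fba1, wat1 and lsg1, the 3 of these genes that missed the threshold, the fft3∆ arrays lay over 1 log2 unit apart. Over all flanks the Cy5 channel differed by −1.46. The Cy3 level that goes with the ratio column differed by 0.17, and the processed Cy3 signal by 0.02.

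**Figure D3:**
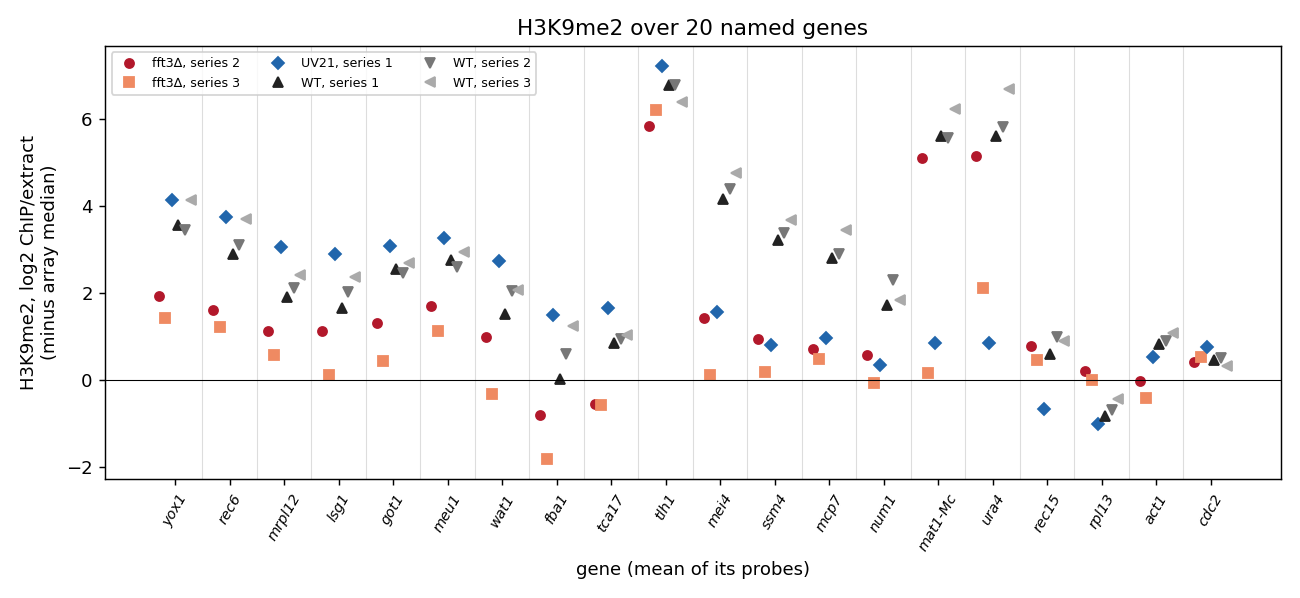
H3K9me2 level (y axis, log2 ChIP over whole-cell extract minus the array median) at 20 named genes, each point being the mean over the gene's probes on 1 array. At the 9 centromere-flank genes on the left both fft3∆ arrays lie under UV21 and under WT (yox1 and rec6 lie where the UV21 value depends on the signal column), while at mat1-Mc and ura4 fft3∆ series 2 lies near WT and apart from fft3∆ series 3 and UV21.

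The pNSU contigs, which the array places outside the 3 chromosomes, had 3.28 and 2.99 in fft3∆, 4.82 in UV21 and 4.29, 4.44 and 4.11 in WT. The fft3∆ mean of 3.13 ± 0.21 (SD, n = 2) was 1.69 lower than the single UV21 array (3.22-fold). Of 21 windows 16 were lower (76.2%, against 4.43% of all windows) and 1 agreed (against 56.5% of all windows). limma called 12 of them, against 1.76% of all windows. By contig the difference was −2.02 on pNSU21, −2.07 on pNSU64, −2.05 on pNSU65, −2.04 on pNSU70 and −2.14 on pNSU32, which has 1 window. pNSU71 had 1.34 and 0.67 in fft3∆ and 2.01 in UV21, and on pNSU77 the difference was −0.92. The processed signals gave the same −1.69. The Cy3 level of these contigs that goes with the ratio column was 0.98 and 1.78 in fft3∆ and 0.51 in UV21, and the Cy5 level 4.25 and 4.77 in fft3∆ and 5.30 in UV21. The fft3∆ arrays thus had more extract signal as well as less ChIP signal than UV21 here. In WT the Cy3 level ran from −0.03 to 0.74 and the Cy5 level from 4.04 to 4.98, a range that holds both fft3∆ Cy5 levels. The part of extract DNA in the difference was not tested.

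Among the 10 windows with the largest lower differences, 8 lay at centromere 2 or its flanks and 2 on pNSU contigs. This ranking rests on the ratio column, since 7 of the 10 lie inside the stretch with the UV21 Cy3 factor. The first 6 of them formed 1 run of 3 windows over 1646001 to 1652000, with differences of −2.44, −2.62 and −2.41, and 1 run of 3 over 1598001 to 1604000, with −2.38, −2.52 and −2.44. The seventh, 1620001 to 1622000, lay in the core (−2.30). From the processed signals these 7 windows differed by −0.72 to −1.04. The 3 others, which do not depend on the column, were 1690001 to 1692000 over fba1 (−2.46) and single windows of pNSU65 (−2.34) and pNSU64 (−2.33).

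At the ends of chromosomes 1 and 2 the strains parted less. In the outermost 50 kb the levels were 1.94 and 2.36 in fft3∆, 3.02 in UV21 and 4.46, 3.90 and 4.88 in WT. Here UV21 lay between fft3∆ and WT, unlike in the flanks of the centromeres, where it was the highest array in both columns. The fft3∆ mean of 2.15 ± 0.30 (SD, n = 2) was 0.87 lower than UV21 (1.83-fold). Of 91 windows 19 were lower (20.9%, against 4.43% of all windows) and 0 agreed (against 56.5%). The remaining 72 lay in between, and limma called 2, where it called 1.76% of all windows. By end the difference was −0.81 at 1L, −0.83 at 1R, −0.79 at 2L and −1.05 at 2R. Over these windows the Cy5 channel differed by −0.84. The Cy3 level that goes with the ratio column differed by 0.00, and the processed Cy3 signal by 0.02.

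The difference held over the next 50 kb, at −0.73 (0.32 and 0.19 in fft3∆ against 0.99 in UV21). There 13 of 98 windows were lower (13.3%) and 17 agreed (17.3%). From 100 to 200 kb the difference was −0.23, with 1 of 200 windows lower and 121 agreeing (60.5%, near the 56.5% of all windows). At the tip of chromosome 1 the telomere-linked helicase gene tlh1 had 5.83 and 6.20 in fft3∆, 7.23 in UV21 and 6.40 to 6.79 in WT. Its difference of −1.21 (SE 0.27) had an adjusted p of 0.0750 by limma. There UV21 lay above WT, unlike over the ends as a whole. Genes of this kind have near-identical copies at other ends, which such probes cannot tell apart.

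At the ends of chromosome 3 the strains were close. In the outermost 50 kb the levels were 0.58 and 0.69 in fft3∆, 0.60 in UV21 and 0.55, 0.61 and 1.13 in WT, a difference of 0.03. None of the 45 windows was lower and 24 agreed (53.3%), near the 56.5% of all windows. In the outer 10 kb on the left the levels were 2.57 and 2.31 in fft3∆, 2.37 in UV21 and 1.93 to 3.61 in WT, so the strains differed little also where the level was high. From 50 to 100 kb 29 of 50 windows agreed (58%), and from 100 to 200 kb 55 of 96 (57.3%), again near the share of all windows.

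**Figure D4:**
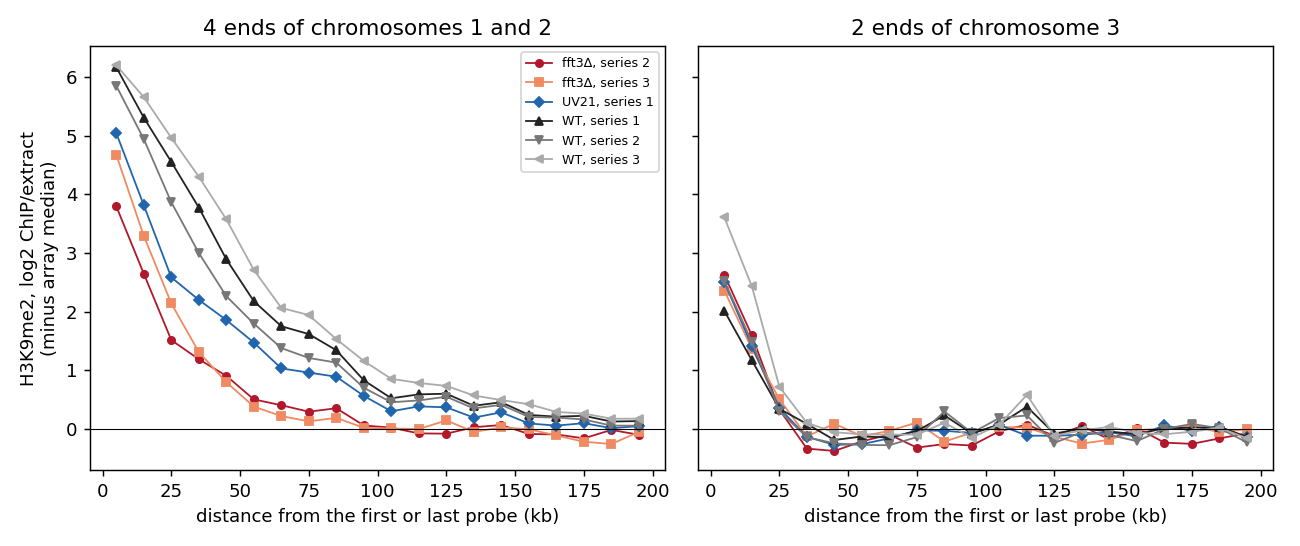
H3K9me2 level (y axis) against distance from the first or last probe of the chromosome (x axis, kb, bins of 10 kb), 1 line per array, for the 4 ends of chromosomes 1 and 2 (left) and the 2 ends of chromosome 3 (right). On the left the fft3∆ arrays are lowest, UV21 lies between them and WT out to 90 to 100 kb, and on the right the lines of fft3∆ and UV21 run together.

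The mating-type locus split the fft3∆ arrays. Over the 15 windows of the mating-type region of chromosome 2, from 2110001 on, the levels were 2.26 in fft3∆ series 2 and 0.01 in fft3∆ series 3, 0.29 in UV21 and 2.99, 3.03 and 3.67 in WT. The array fft3∆ series 3 and UV21 were both near the typical probe, while fft3∆ series 2 kept most of the WT level. Thus fft3∆ series 2 was 1.97 above UV21 and fft3∆ series 3 0.28 below it, and the mean difference of 0.85 describes neither. By the fold criterion 0 of these windows were lower (4.43% of all windows) and 0 higher, and 0 agreed. At 2132001 to 2134000 the levels were 5.18 and −0.04 in fft3∆, 0.57 in UV21 and 5.60 to 6.63 in WT. The Cy3 level of this window was low in fft3∆ series 2 (−3.24) and WT series 2 (−2.96), against 0.81 in fft3∆ series 3 and 0.52 in UV21. The next window, 2134001 to 2136000, had Cy3 levels of −0.71 and 0.56 in fft3∆ and 0.10 in UV21. Its H3K9me2 levels were 4.88 and 0.42 in fft3∆, 0.81 in UV21 and 5.36 to 6.42 in WT.

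The flanking 20 kb gave the same order. On the left the levels were 0.82 and −0.28 in fft3∆, −0.02 in UV21 and 1.30, 1.43 and 1.95 in WT. On the right they were 0.81 and −0.14 in fft3∆, 0.07 in UV21 and 1.56, 1.66 and 2.09 in WT. At the gene mat1-Mc, which encodes a mating-type transcription factor and was the only gene of the locus list with a value, the levels were 5.11 and 0.15 in fft3∆, 0.84 in UV21 and 5.55 to 6.23 in WT (adjusted p = 0.722 by limma).

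The array's separate mating-type contig repeated this, with means of 3.32 and 0.88 in fft3∆, 1.39 in UV21 and 4.04, 4.07 and 4.43 in WT. Its 2 windows from 28001 to 32000 were the exception. They had 7.14 and 6.51, then 6.88 and 6.47, in fft3∆ and 8.47 and 8.24 in UV21, and WT had 6.33 to 7.44. Both windows were lower in fft3∆ by the fold criterion. The cenH element of this locus is known to resemble the centromeric repeats, and the share of the signal at these probes that comes from the centromeres was not tested.

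The extracts differed in the DNA of this locus. The 12 probes at 25201 to 28560 of the contig had Cy3 levels of −1.10 in fft3∆ series 2 and −8.26 in fft3∆ series 3, −6.91 in UV21, and −6.65, −0.92 and −1.97 in WT series 1, 2 and 3. That stretch was therefore at the level of missing DNA in fft3∆ series 3, UV21 and WT series 1 only. WT series 1 lacked the stretch and had an H3K9me2 level of 2.99 in the region, while fft3∆ series 3 and UV21 lacked it and had 0.01 and 0.29. A shorter stretch of 4 probes at 2133001 to 2133960 of chromosome 2 was missing from fft3∆ series 2 (−5.90) and WT series 2 (−5.82) and present in UV21 (−0.10). The part of these differences in DNA in the H3K9me2 levels was not tested.

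**Figure D5:**
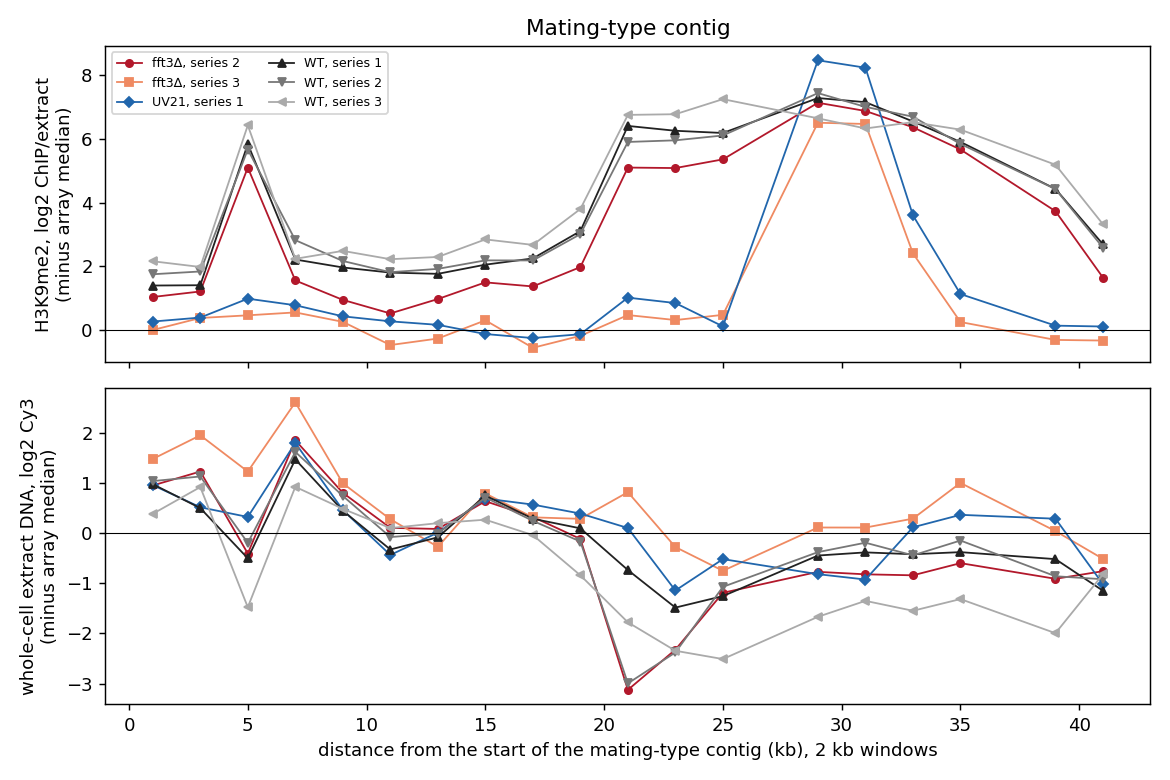
Top, H3K9me2 level along the array's mating-type contig (x axis, distance from its start in kb, 2 kb windows), 1 line per array. Bottom, the Cy3 level of whole-cell extract DNA in the same windows. In the top panel fft3∆ series 3 and UV21 stay at or under 1.13 except in 3 adjacent windows near 30 kb, and in the first 2 of these all 6 arrays are above 6.

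Outside these domains, genes were taken by list. Of the 14 meiotic genes that the RNA-elimination factor Mmi1 targets, 1 was lower by limma (1.95% of all genes) and 7 agreed (57.8% of all genes), and the median difference was −0.37 beside −0.13 over all genes. The 1 called was meu1, which lies in the right flank of centromere 1, with 1.68 and 1.11 in fft3∆, 3.25 in UV21 and 2.60 to 2.93 in WT (adjusted p = 0.0316 by limma). mei4, the meiotic forkhead transcription factor, had 1.43 and 0.11 in fft3∆, 1.56 in UV21 and 4.17 to 4.75 in WT. At ssm4, whose product acts in meiotic nuclear movement, the levels were 0.93 and 0.17 in fft3∆, 0.80 in UV21 and 3.21 to 3.68 in WT. The recombination gene mcp7 had 0.70 and 0.48 in fft3∆, 0.97 in UV21 and 2.80 to 3.45 in WT. num1, also known as mcp5 and needed to anchor dynein in meiosis, had 0.57 and −0.07 in fft3∆, 0.34 in UV21 and 1.72 to 2.30 in WT. At these 4 genes the fft3∆ and UV21 arrays lay under every WT array, as also at mug9 and mug8 but at no other member of this list. The same order was found in the other lists, among them at pho1, pho84, tgp1, act1 and atb2. Its share over all genes was not counted. At the 4 genes the difference between fft3∆ and UV21 missed the threshold (adjusted p 0.571, 0.823, 0.675 and 0.951 by limma). With pericentromeric centring of the ratio column the 4 differences turned to 0.94, 1.48, 1.35 and 1.64.

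Of the 3 phosphate-responsive genes pho1, pho84 and tgp1, 1 agreed (57.8% of all genes did) and 0 were called by limma (1.95% of all genes), with a median difference of −0.28 and 0 lower at an unadjusted p under 0.05. Among the 12 housekeeping genes, fba1 and pyk1 were lower by the fold criterion (3.89% of all genes), 0 were called by limma, with 3 lower at an unadjusted p under 0.05, and 4 agreed (57.8% of all genes). Their median difference was −0.37, against −0.13 over all genes. pyk1, the pyruvate kinase gene, lies just outside the right flank of centromere 1 and had −0.12 and −0.24 in fft3∆, 0.97 in UV21 and 0.16 to 0.93 in WT (adjusted p = 0.172 by limma, and a difference of 0.58 in place of −1.15 with pericentromeric centring of the ratio column). The actin gene act1, which adjoins mei4, had −0.03 and −0.41 in fft3∆, 0.51 in UV21 and 0.81 to 1.07 in WT (a difference of −0.73, or 0.99 with pericentromeric centring of the ratio column). The other Fun30-family genes fft1 and fft2 agreed between the strains. fft3 itself had 2 usable probes at the edge of the gene, with Cy3 levels of 0.80 and 0.38 in fft3∆, so their DNA was present. Their H3K9me2 levels were −0.58 and 0.17 in fft3∆ and −0.04 in UV21, and do not describe the part of the gene that is missing.

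The 4 genes higher in fft3∆ by the fold criterion were ura4, rec15, rpl13 and SPBC1711.15C. ura4, a uracil biosynthesis gene widely used as a marker, had 5.14 and 2.11 in fft3∆, 0.85 in UV21 and 5.61 to 6.69 in WT. The 2 fft3∆ arrays differed by over 3 log2 units, and the adjusted p was 0.320 by limma. Its Cy3 level was −1.04 in fft3∆ series 2, 0.55 in fft3∆ series 3, 0.66 in UV21 and −0.27 to −1.72 in WT. These probes would also read any copy of the marker placed elsewhere, and the labels give no marker. rec15, a meiotic recombination gene, had 0.76 and 0.46 in fft3∆, −0.68 in UV21 and 0.60 to 0.99 in WT, and rpl13, a ribosomal protein gene, had 0.21 and 0.00 in fft3∆, −1.02 in UV21 and −0.84 to −0.45 in WT (adjusted p 0.0553 and 0.0639 by limma). SPBC1711.15C overlaps rec15 on the array and shares its probes, and both lie just beyond the right flank of the mating-type region.

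The scanner software applied 1 version of its extraction protocol to series 1 and 2 and another to series 3. Within the protocol shared by UV21 and fft3∆ series 2, the ratio column differed by −1.46 in the flanks and −1.54 on the pNSU contigs. It differed by −1.08 at the ends of chromosomes 1 and 2 and −0.02 at those of chromosome 3. In the outer repeats and cores it differed by −1.63 and −1.55. From the processed signals the outer repeats had 6.07 in fft3∆ series 2 and 6.09 in UV21, and the cores 1.14 and 1.09. In the mating-type region and on its contig the difference had the other sign, at 1.97 and 1.93. These arrays were read with different software versions, so a shared protocol does not make their processing the same.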

How the data were processed

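Scanner files of the 6 H3K9me2 arrays were used. Per the file headers, they hold each channel's spot intensity, the processed intensity and a log10 ratio of red over green, read with Agilent Feature Extraction 10.7.3.1 (fft3∆ series 2), 11.5.1.1 (both arrays of series 3) and 12.0.3.1 (UV21, WT series 1 and 2). The deposited value table holds the linear ratio of the authors' processed intensities, red over green, unlogged and uncentred, with column medians of 0.988 and 0.991 in fft3∆ and 0.932 in UV21. The genome build of the array is not given in the sources used here.

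The log10 ratio was multiplied by 3.32 to give log2 and centred on the array's median, since no step that forces channels together suits ChIP. Probes that were non-uniform, or not well above background in Cy3, on any of the 6 arrays were left out, which kept 33704 of 41551. Cores were the longest runs of windows under 50% of the highest mean WT level in a pericentromere. Windows had at least 3 probes and genes at least 2. Cy3 signal over background (median) was 40.2 and 219 in fft3∆ and 19.7 in UV21; precision is limited by the few arrays. limma 3.58.1 (R 4.3.3; lmFit, eBayes, group only) was fitted to all 6 arrays, and UV21 was assumed to vary like the others. It was also run on simulated data in which every array, UV21 included, had the spread of the WT arrays. That run therefore cannot check this assumption. Regions used Python 3.11.15. The normexp alternative used median spot signals. The alternatives covered signal column, probe filter, centring, blocks, samples, window size and each array left out.

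Genes were named through the assembly ASM294v3: 5098 of 5113 protein-coding genes had a probe, each arm placed by its GC content against Cy3. Named were all listed genes, and the 8 genes and 10 windows that differed most each way under the fold criterion. Regions, lists and members were chosen with earlier results of these data known.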

Additional observations from a re-analysis of the deposited data

Results flagged for a closer look

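From the ratio column, in 4 kinds of region every fft3∆ array lay under the WT array of its own series while the UV21 array lay above its own. The opposite directions are what drew attention, and the difference between the strains' own shifts was not tested separately from the comparison given above. In the outer repeats the fft3∆ arrays were at −0.66 in series 2 and −0.74 in series 3 relative to WT, and UV21 at 1.11. In the cores they were at −0.66 and −0.74, and UV21 at 1.52. In the flanks they were at −0.88 and −1.63, and UV21 at 0.69. On the pNSU contigs they were at −1.16 and −1.13, and UV21 at 0.53. From the processed signals UV21 lay under its own WT array in the outer repeats, at −0.50, and in the cores, at −0.085, so that the directions were not opposite there. In the flanks and on the pNSU contigs it stayed above, at 0.52 and 0.53.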

How the results depend on the processing

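Calls by limma were unstable, and the sizes of the differences depended on the signal column and the centring. Against 109 windows called in the main setting, processed signals gave 58, no probe filter 171 (170 lower), non-uniform features kept 174, a filter on the fft3∆ and UV21 arrays only 171, and a fit of those 3 arrays alone 187. Against 93 genes the 3 arrays alone gave 0, with 296 lower and 7 higher at an unadjusted p under 0.05. The extraction protocol as a block gave 0 windows and 0 genes by limma, with 766 and 585 lower at an unadjusted p under 0.05. Leaving out 1 array at a time gave 0 to 362 windows and 0 to 482 genes, and differences of −0.28 to 1.97 in the mating-type region and −0.51 to 1.93 on its contig. With the series number as a replicate block limma called 0 windows (369 lower and 2 higher unadjusted) and 50 genes, 35 of them among the 93 lower, and the cores differed by −2.22, the flanks by −1.94 and the ends of chromosome 3 by −0.29. Whether fft3∆ and WT arrays of the same series deviate together could be checked for series 2 against series 3 only, which gives 1 value (r = −0.03 over 6183 windows and −0.04 over 4780 genes). UV21 has no second array to deviate from, and no pairing by series was taken as shown. normexp gave −1.94 on the pNSU contigs. Processed signals gave −0.20 in the outer repeats and 0.066 in the cores (0.075, 0.044 and 0.081 at centromeres 1, 2 and 3).

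Centring on the pericentromeric mean gave 5761 windows and 4494 genes, and differences of −0.083 in the outer repeats, 0.19 in the cores (0.22, 0.19 and 0.16 by centromere), 0.065 in the flanks, 0.039 on the pNSU contigs, 2.58 in the mating-type region, 2.44 on its contig, 0.86 at the ends of chromosomes 1 and 2 and 1.76 at those of chromosome 3. Single regions turned to 0.20 and 0.088 in the left and right flank of centromere 1, 0.21 and 0.030 in the left flanks of centromeres 2 and 3, and 0.68 at end 2R. Genes turned to 0.94 at mei4 and rec11, 1.48 at ssm4, 1.11 at rec8, 1.70 at spo5 and atb2, 1.64 at num1, 1.35 at mcp7, 1.37 at crs1, 1.34 at mek1, 1.45 at pho1, 1.25 at pho84, 0.52 at tlh1, 1.69 at fft2, 1.57 at fft3, 0.99 at act1, 1.28 at eno101, 1.15 at pgk1, 1.44 at cdc2, 1.43 at ubi4, 1.17 at gpm1 and 0.58 at pyk1. Processed signals with this centring, chosen after seeing the data, gave −0.078 in the outer repeats, 0.19 in the cores (0.20, 0.17 and 0.21) and −1.37 in the flanks. fft3 turned to 2.32 with no probe filter, which admits probes of the deleted gene. The sign changes under pericentromeric centring come from the constant it adds to each array. For processed signals the values differ by the UV21 Cy3 factor. The cause was not tested in the other cases. For the named genes 600 comparisons with an alternative were counted as unchanged, 49 as changed towards a call, 41 away from one and 23 in sign. A change of sign was counted only where the gene was called in the main setting, by limma or the fold criterion, or by limma in the alternative. The 600 therefore include changes of sign at uncalled genes, such as mat1-Mc (−0.69 to 4.27 with 1 array left out).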
